A study of Mus musculus with 8 samples.

Results

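The genes described here are 8 enzymes of haem synthesis, Alas1, Alas2, Alad, Uros, Urod, Cpox, Ppox and Fech, and Tfrc, the transferrin receptor through which cells take up iron. They were chosen by gene symbol, and each matched 1 row of the 41128 genes in the table of read counts, so 9 of 41128 genes are members. All 9 passed the filter on low counts that left 14179 genes for testing.

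RNA was sequenced from haemogenic endothelium, the endothelium that gives rise to the earliest blood cells, differentiated in culture from embryonic stem cells of strain C57BL/6. One line carried lox sites at both copies of Hdac1 (Hdac1 lox/lox) and the other at both copies of Hdac2 (Hdac2 lox/lox). Each line was labelled with the agent ETOH (ethanol, written EtOH below) or 4oht (4-hydroxytamoxifen, written 4OHT below), and the design text names deletion of Hdac1 or Hdac2. Each of the 4 groups held 2 libraries. 4OHT is widely used to switch on Cre recombinases that depend on tamoxifen. No group of a line without lox sites given 4OHT was analysed here, so an effect of the agent itself and an effect of a deletion cannot be told apart. The labels do not say whether the 2 libraries of a group came from separate cultures or how many clones a line holds, and the p-values then measure only the spread between these libraries.

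Haem is built from glycine and succinyl-CoA. ALAS1 in most cells, and ALAS2 in cells of the red lineage, make aminolaevulinate in the mitochondrion, ALAD, UROS and UROD act in the cytosol, and CPOX, PPOX and FECH finish it in the mitochondrion, where ferrochelatase inserts the iron. Cells that make haemoglobin raise the pathway, with ALAS2 as its first enzyme, together with the transferrin receptor. Iron regulatory proteins bind a short stem and loop in certain messenger RNAs, the iron-responsive element. One in the 5′ UTR blocks translation when iron is scarce, and those in the Tfrc 3′ UTR protect the message from decay.

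Letters that match the iron-responsive element are shown first, as a description of the members' messages. A pattern was searched in the UTRs of all GENCODE M21 transcripts on GRCm38. It was a C, 5 bases of stem, the loop letters CAGTG and 1 base other than G, and 5 bases that pair with the stem, G-T pairs allowed. On the transcript strand it was found in the 5′ UTR of 23 of 20916 genes (0.11%) and in the 3′ UTR of 100 of 21707 genes (0.46%). The outcome for Fech was not listed and is not reported here. Among the other members, Alas2 held 1 match in its 5′ UTR and Tfrc held 4 in its 3′ UTR. Among the genes of iron uptake, storage, export and sensing listed further on, Fth1, Ftl1 and Slc40a1 held 1 each in the 5′ UTR. The loop letters are in capitals, and each stretch has 29 bases.
Alas2: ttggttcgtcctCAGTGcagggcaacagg
Tfrc match 1: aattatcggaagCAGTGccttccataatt
Tfrc match 2: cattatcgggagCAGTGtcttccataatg
Tfrc match 3: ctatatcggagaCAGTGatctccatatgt
Tfrc match 4: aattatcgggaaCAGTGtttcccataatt
Fth1: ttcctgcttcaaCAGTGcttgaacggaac
Ftl1: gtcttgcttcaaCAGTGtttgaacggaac
Slc40a1: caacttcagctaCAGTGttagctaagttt

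The 4 Tfrc stretches lie on the plus strand at chr16:32631219-32631247, chr16:32631598-32631626, chr16:32631663-32631691 and chr16:32631710-32631738. The Alas2 stretch is read across a splice junction, so its ends, chrX:150547458-150552149 on the plus strand, also enclose an intron. Those of Fth1 (chr19:9982732-9982760, plus strand), Ftl1 (chr7:45459779-45459807, minus strand) and Slc40a1 (chr1:45925465-45925493, minus strand) are unspliced. A match is a description of letters. It shows neither binding nor a cause of any difference below.

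Total counts ran from 10215792 to 19552380 per library. Levels are CPM, the counts of a gene relative to library size, with library sizes scaled by the trimmed mean of M values (TMM), and 3 counts correspond to 0.15 to 0.287 CPM. The library labelled Hdac2 lox/lox EtOH replicate 2 had the fewest counts. It also held 4.58 CPM of the Y-linked gene Ddx3y against 0.324 to 0.889 CPM in the other libraries of its line and 25.8 to 45.7 CPM in the Hdac1 line. Counts of the targeted genes did not check the labels. Hdac1 stood at 5.78 and 5.60 CPM in the EtOH libraries of its line and at 6.99 and 7.12 CPM in those labelled 4OHT, where Gm10093, a near-identical copy, had 110 to 146 CPM in that line. Hdac2 stood at 165 and 151 CPM in the EtOH libraries of its line and at 149 and 149 CPM in those labelled 4OHT. The markers of the labelled cell type, Cdh5, Pecam1, Kdr, Tek, Kit, Runx1 and Gfi1, were all detected in every group, with a summed level of 2269 to 6641 CPM over the 8 libraries.

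In the Hdac2 line, 6 of the 9 genes fell in the libraries labelled 4OHT and 1 rose. Alas2, Alad, Uros, Urod, Cpox and Tfrc fell, by 2.12-fold for Cpox to 5.45-fold for Alas2. Alas1, the form of the first enzyme made in most tissues, rose 1.47-fold. Ppox and Fech had log2 fold changes of -1.01 and -0.45 and did not pass the test. Over all genes tested, 36.1% were called in this comparison, 18.9% higher and 17.2% lower. The median log2 fold change of the 9 genes was -1.26, against -0.02 over all genes. The summed level of the 9 genes was 677.5 to 704.5 CPM in the EtOH libraries and 338.5 to 402 CPM in those labelled 4OHT. Here and below, "called" means a p under 0.05 in the quasi-likelihood test of edgeR, after adjustment by Benjamini and Hochberg over the 14179 genes.

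**Figure D1:**
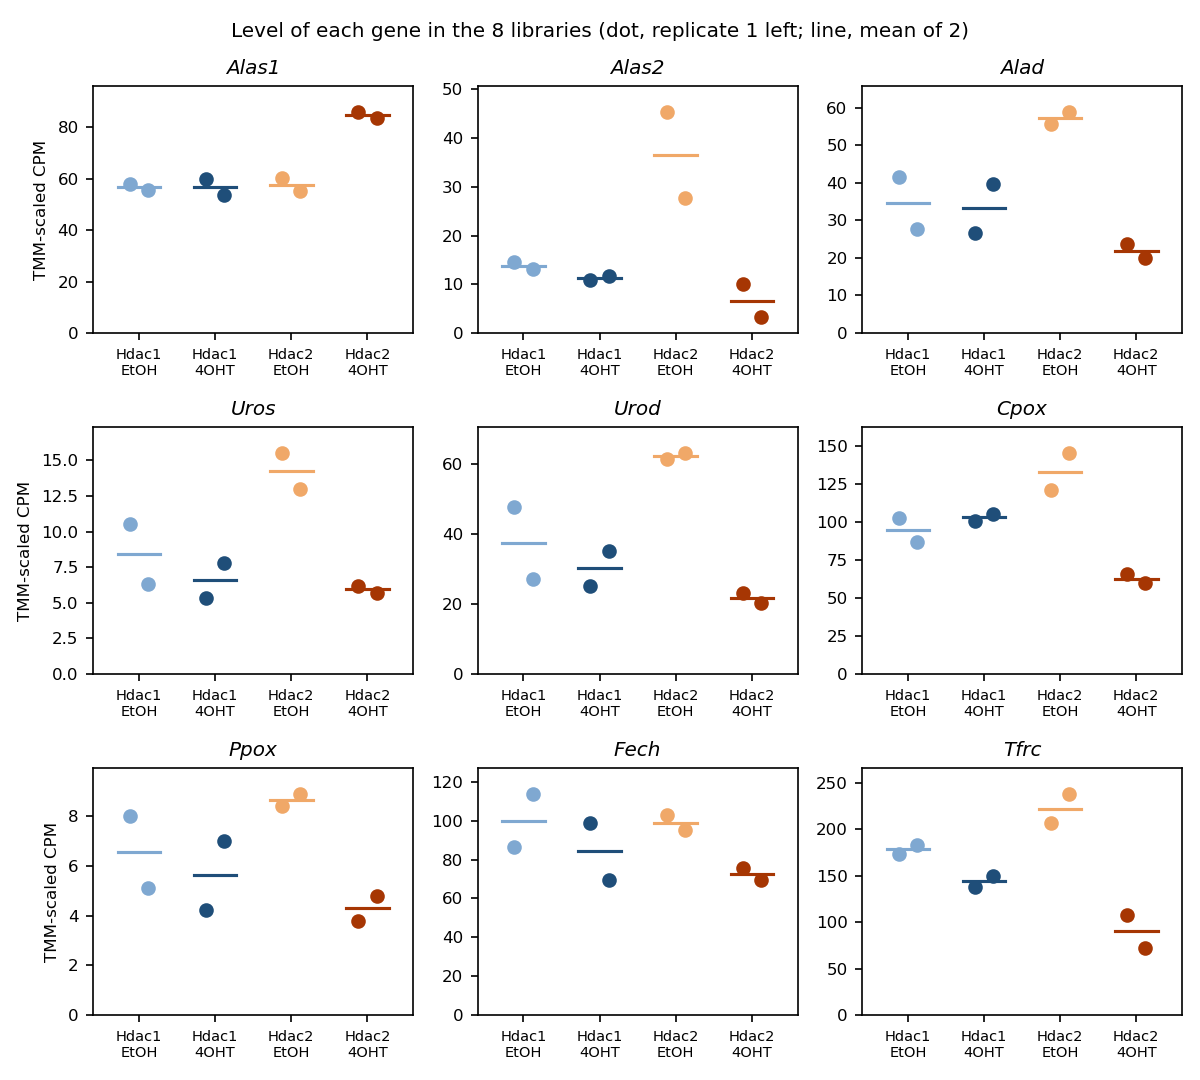
TMM-scaled CPM of each of the 9 genes (vertical axes, linear, from 0) in the 4 groups; a dot is a library, replicate 1 on the left, and a line is the mean of 2. In the Hdac2 line the dots of the libraries labelled 4OHT lie below both EtOH dots for 8 genes and above them for Alas1, while in the Hdac1 line the agents overlap for 7 genes.

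The first step of the pathway is catalysed by 2 enzymes, and their messages differed in direction. Alas1 (chr9:106233455-106248126, minus strand) had 60.3 and 55.2 CPM in the EtOH libraries of the Hdac2 line and 85.7 and 83.5 CPM in those labelled 4OHT. It had 57.8 and 55.5 CPM in the EtOH libraries of the Hdac1 line and 59.8 and 53.5 CPM in those labelled 4OHT. The libraries labelled Hdac2 lox/lox 4OHT stood above the 6 others, which overlapped. The log2 fold change in the Hdac2 line was 0.55 ± 0.15 SE (adjusted p = 0.0248 by edgeR). With upper quartile scaling, which moved the median of all genes by -0.13, it was 0.42 (adjusted p = 0.0572). Relative to the median of all genes it was 0.569 under both scalings. A change of scaling shifts all genes nearly alike, so this value could hardly differ. With the correction for GC content and length described further on it was 0.484, and 0.445 with lengths over all annotated exons.

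Alas2 (chrX:150547375-150570638, plus strand) encodes the erythroid form. It had 45.2 and 27.7 CPM in the EtOH libraries of the Hdac2 line and 10.01 and 3.29 CPM in those labelled 4OHT. The Hdac1 line had 14.5 and 13.2 CPM with EtOH and 10.9 and 11.7 CPM with 4OHT. No neighbouring pair of groups overlapped, from Hdac2 lox/lox EtOH down through the Hdac1 groups to Hdac2 lox/lox 4OHT. The log2 fold change in the Hdac2 line was -2.45 ± 0.47 SE (adjusted p = 0.0121 by edgeR), the lowest of the 9. The 2 libraries labelled Hdac2 lox/lox 4OHT differed by 1.57 on the log2 scale, more than those of any other member in any group. The whole span of Alas2 lies within Apex2, a DNA repair gene on the opposite strand with a mean of 25.1 CPM. A search of both strands matched 312 bases of the 2 transcripts at 100% identity and did not record the strand of the match. No source used here states whether the counting used strand. Apex2 itself showed -0.40 on the log2 scale (adjusted p = 0.0938 by edgeR).

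The cytosolic members moved together. Alad (chr4:62509169-62519918, minus strand), which joins 2 aminolaevulinates into porphobilinogen, had 55.7 and 58.7 CPM in the EtOH libraries of the Hdac2 line and 23.7 and 19.9 CPM in those labelled 4OHT. Its log2 fold change was -1.39 ± 0.26 SE (adjusted p = 0.0120 by edgeR). Levels in the Hdac1 line were 41.6 and 27.8 CPM with EtOH and 26.6 and 39.7 CPM with 4OHT, so these groups overlapped.

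Uros (chr7:133686243-133710072, minus strand), which closes the ring, was at low levels. It had 15.49 and 12.99 CPM in the EtOH libraries of the Hdac2 line and 6.21 and 5.69 CPM in those labelled 4OHT. Levels in the Hdac1 line were 10.5 and 6.35 CPM with EtOH and 5.34 and 7.80 CPM with 4OHT. Both EtOH libraries of the Hdac2 line stood above the 6 others. The log2 fold change there was -1.26 ± 0.32 SE (adjusted p = 0.0220 by edgeR). Its end overlaps 740 bases of Bccip on the opposite strand, which had 6.905 times its mean CPM and was itself called lower (-0.81, adjusted p = 0.0185 by edgeR). The part of these reads in the Uros values was not tested.

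Urod (chr4:116989965-116994413, minus strand) encodes the decarboxylase that ends the cytosolic steps. It had 61.4 and 63.0 CPM in the EtOH libraries of the Hdac2 line and 23.0 and 20.3 CPM in those labelled 4OHT. The Hdac1 line had 47.7 and 27.3 CPM with EtOH and 25.2 and 35.1 CPM with 4OHT. The 2 groups of the Hdac2 line lay on either side of all 4 libraries of the Hdac1 line. The log2 fold change in the Hdac2 line was -1.52 ± 0.29 SE (adjusted p = 0.0119 by edgeR).

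The last 3 steps, in the mitochondrion, were less uniform. Cpox (chr16:58670208-58680391, plus strand) encodes the oxidase of coproporphyrinogen. It had 121 and 145 CPM in the EtOH libraries of the Hdac2 line and 65.8 and 59.6 CPM in those labelled 4OHT, and its log2 fold change was -1.09 ± 0.17 SE (adjusted p = 0.00868 by edgeR). The Hdac1 line had 103 and 87.0 CPM with EtOH and 101 and 105 CPM with 4OHT. It was the member with the smallest adjusted p in the Hdac2 line, and its 4 values in the Hdac1 line lay between the 2 groups of the Hdac2 line.

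Ppox (chr1:171275990-171281186, minus strand) encodes protoporphyrinogen oxidase and had the lowest level per length. It had 8.43 and 8.88 CPM in the EtOH libraries of the Hdac2 line and 3.802 and 4.799 CPM in those labelled 4OHT. Its levels in the Hdac1 line were 8.02 and 5.10 CPM with EtOH and 4.24 and 7.004 CPM with 4OHT. The groups of the Hdac2 line did not overlap, but their difference of -1.01 ± 0.34 SE on the log2 scale did not pass the test (adjusted p = 0.0527 by edgeR; 95% interval -1.81 to -0.21). It was called by DESeq2 (adjusted p = 0.0448). Ppox shares 907 bases with B4galt3 on the opposite strand, which had 3.13 times its mean CPM and a log2 fold change of -0.45 (adjusted p = 0.105 by edgeR).

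Fech (chr18:64456550-64489066, minus strand), ferrochelatase, had 103 and 95.1 CPM in the EtOH libraries of the Hdac2 line and 75.5 and 69.5 CPM in those labelled 4OHT. Its levels in the Hdac1 line were 86.5 and 113 CPM with EtOH and 99.0 and 69.4 CPM with 4OHT. Neighbouring groups overlapped throughout when ordered by mean, although the 2 groups of the Hdac2 line did not overlap each other. The log2 fold change there was -0.45 ± 0.22 SE (adjusted p = 0.132 by edgeR; 95% interval -0.95 to 0.05). Its longest transcript matched transcripts of 196 other genes over at least 200 bases at 90% identity or more, as repeats do, and Cpox matched 16. No source used here states how reads that map to several places were counted.

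Tfrc (chr16:32608920-32632794, plus strand) carries iron bound to transferrin into the cell. It had 207 and 238 CPM in the EtOH libraries of the Hdac2 line and 108 and 71.9 CPM in those labelled 4OHT, and its log2 fold change was -1.30 ± 0.21 SE (adjusted p = 0.00893 by edgeR). In the Hdac1 line it had 174 and 184 CPM with EtOH and 138 and 150 CPM with 4OHT. No neighbouring pair of groups overlapped, and the order from highest to lowest was Hdac2 lox/lox EtOH, Hdac1 lox/lox EtOH, Hdac1 lox/lox 4OHT and Hdac2 lox/lox 4OHT.

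All 9 genes had groups that did not overlap between the agents in the Hdac2 line, but so did 78.3% of all genes tested. Leaving out 1 of the 4 libraries of this line ended most of the calls. Without EtOH replicate 1, EtOH replicate 2 or 4OHT replicate 2, 0 of the 9 genes were called, and without 4OHT replicate 1, 3 were called lower. Over all genes the calls went from 5113 to 116, 0, 91 and 826 in the same order. In each of these 4 fits a group was left with 1 library, whose spread had to be borrowed from the remaining groups. Why the calls ended was not tested. The directions of the 9 genes held in all 4 fits. The log2 fold changes then ran from -3.47 to -1.86 for Alas2, from -1.52 to -1.27 for Alad, from -1.38 to -1.13 for Uros and from -1.61 to -1.43 for Urod. They ran from -1.21 to -0.95 for Cpox, from -1.63 to -1.03 for Tfrc and from 0.49 to 0.62 for Alas1. Without EtOH replicate 2, the library with more Ddx3y, the log2 fold changes were -2.75 for Alas2, -0.95 for Cpox and -1.20 for Tfrc.

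**Figure D2:**
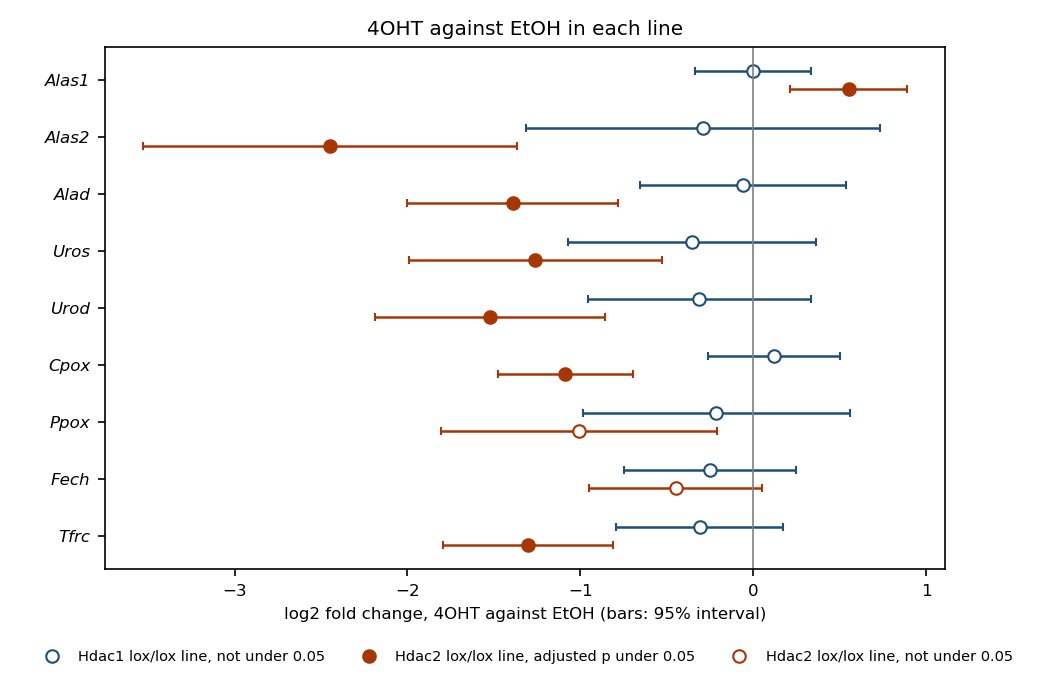
Log2 fold change of 4OHT against EtOH (horizontal axis) for each gene in the Hdac1 lox/lox line (blue) and the Hdac2 lox/lox line (red brown), with 95% intervals; filled dots have an adjusted p under 0.05. The 7 filled dots are all from the Hdac2 line, and each interval of the Hdac1 line includes 0.

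In the Hdac1 line no member was called by edgeR, where 0% of all genes were called, and none had an unadjusted p under 0.05. Over all genes, 947 had an unadjusted p under 0.05, and DESeq2 called 32 genes, none of them a member. The log2 fold changes ran from -0.35 for Uros to 0.12 for Cpox, with a median of -0.25 against -0.02 over all genes. Alas2 and Tfrc were lower in both libraries labelled 4OHT than in both EtOH libraries, a pattern that 15.4% of all genes showed in this direction. Their log2 fold changes were -0.29 for Alas2, with a 95% interval of -1.31 to 0.73, and -0.31 for Tfrc, with a 95% interval of -0.79 to 0.17. The interval of Alas2 includes a 2-fold fall and that of Tfrc does not. For Alas1 the difference was 0.00, with a 95% interval of -0.33 to 0.34.

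For Alas1, Alad, Uros, Urod, Ppox and Fech, the replicates of the Hdac1 line differed from each other more than the means of the agents did. For Cpox this held in the EtOH group only. In the EtOH group of this line, replicate 2 was lower than replicate 1 by 0.58 for Alad and 0.72 for Uros on the log2 scale. It was lower by 0.81 for Urod and 0.64 for Ppox, and higher by 0.39 for Fech. In its 4OHT group the signs were the opposite, with replicate 2 higher by 0.58, 0.54, 0.48 and 0.71 for the same 4 genes and lower by 0.51 for Fech. The erythroid markers followed the same division of libraries. Their summed level was 962.5 and 303.0 CPM in EtOH replicates 1 and 2 and 169.0 and 447.1 CPM in 4OHT replicates 1 and 2. Alas2 had the same signs with smaller differences, -0.14 in the EtOH group and 0.10 in the 4OHT group (replicate 2 minus replicate 1, log2). Over all genes tested, the 5th and 95th percentiles of this difference were -0.9659 and 1.124 in the EtOH group. In the 4OHT group they were -0.8537 and 0.942, and every member lay inside these limits in both groups. Deviations of same-numbered libraries from their group means correlated at -0.688 over 14179 genes within this line. The reversal of signs was thus not particular to the members.

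The difference between the 2 lines in the effect of 4OHT was tested as an interaction. No member was called by edgeR, against 0.0282% of all genes, which is 4 genes. At an unadjusted p under 0.05 there were 5 members more lowered in the Hdac2 line (Alas2, Alad, Urod, Cpox and Tfrc) and 1 more raised (Alas1), where 12.5% of all genes passed that threshold in the lower direction and 15.5% in the higher. The smallest adjusted p was that of Cpox, with a difference of -1.21 ± 0.24 SE on the log2 scale (adjusted p = 0.0717 by edgeR). For Alas2 the difference was -2.16 ± 0.64 SE, with a 95% interval of -3.63 to -0.68 and an adjusted p of 0.10 by edgeR. DESeq2 called 4 members, Alas2, Alad, Cpox and Tfrc, among 1781 genes over all, and limma-voom called 0 members and 1 gene over all. Without a filter on low counts edgeR called 4 members, Alad, Urod, Cpox and Tfrc, among 1187 genes, and with the correction for GC content and length described further on it called Cpox, among 146. Without Hdac1 lox/lox EtOH replicate 1, 3 members (Alad, Urod and Cpox) and 3740 genes were called. Whether the lines were called different in these members thus depended on the tool, the filter, the correction and 1 library.

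The lines were also compared within each agent, where the line, its clone history and its treatment cannot be told apart. These comparisons share libraries with those above. Among EtOH libraries no member was called by edgeR, against 9.33% of all genes, and 5 had an unadjusted p under 0.05, all lower in the Hdac1 line, as did 14.6% of all genes in that direction. DESeq2 called 1, Alas2. In 7 members (Alas2, Alad, Uros, Urod, Cpox, Ppox and Tfrc) both Hdac1 lox/lox EtOH libraries lay below both Hdac2 lox/lox EtOH libraries, as did 29.9% of all genes. The log2 difference was -1.40 ± 0.44 SE for Alas2 (adjusted p = 0.0769 by edgeR) and lay between -0.76 and 0.02 for the other 8. With the correction for GC content and length described further on, 1 member, Cpox, was called lower (-0.66, adjusted p = 0.0422 by edgeR). With lengths over all annotated exons Fech was called lower as well (-0.65, adjusted p = 0.035 by edgeR). With the former lengths, the calls over all genes went from 911 higher and 412 lower to 1171 higher and 960 lower.

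Among the libraries labelled 4OHT, Cpox was called higher in the Hdac1 line, with a log2 difference of 0.72 ± 0.17 SE (adjusted p = 0.0420 by edgeR), where 4.27% of all genes were called higher and 8.02% in either direction. Alas1 was lower there by 0.58 on the log2 scale (adjusted p = 0.0510 by edgeR). Leaving out either library of the Hdac1 lox/lox 4OHT group, or any of the 4 libraries of the Hdac2 line, ended the Cpox call. Tfrc had a difference of 0.68 ± 0.21 SE (adjusted p = 0.0858 by edgeR).

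Levels of different genes were compared per kilobase of the principal transcript. Averaged over the 8 libraries, the order was Tfrc at 32.5 CPM per kilobase, Cpox at 31.8, Alad at 29.5, Urod at 25.4, Alas1 at 18.8, Fech at 13.5, Alas2 at 8.38, Uros at 4.99 and Ppox at 3.45. The order depends on the length used, since with all exons of a gene merged Alad, at 19.6 CPM per kilobase, lay above Cpox at 16.6. In the EtOH libraries of the Hdac2 line, Alas1 was at 16.99 ± 1.06 and Alas2 at 17.9 ± 6.09 CPM per kilobase (SD, n = 2). Their order differed between these 2 libraries, with 17.7 against 22.2 in replicate 1 and 16.2 against 13.6 in replicate 2. With all exons merged Alas2 lay above Alas1 in both, at 18.8 against 10.7 and 11.5 against 9.78 CPM per kilobase. In the libraries labelled 4OHT of that line, Alas1 was at 24.9 ± 0.461 and Alas2 at 3.26 ± 2.33 CPM per kilobase (SD, n = 2). In both groups of the Hdac1 line Alas1 lay above Alas2, at 16.7 ± 0.483 against 6.79 ± 0.472 CPM per kilobase with EtOH and 16.7 ± 1.31 against 5.54 ± 0.264 with 4OHT (SD, n = 2).

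**Figure D3:**
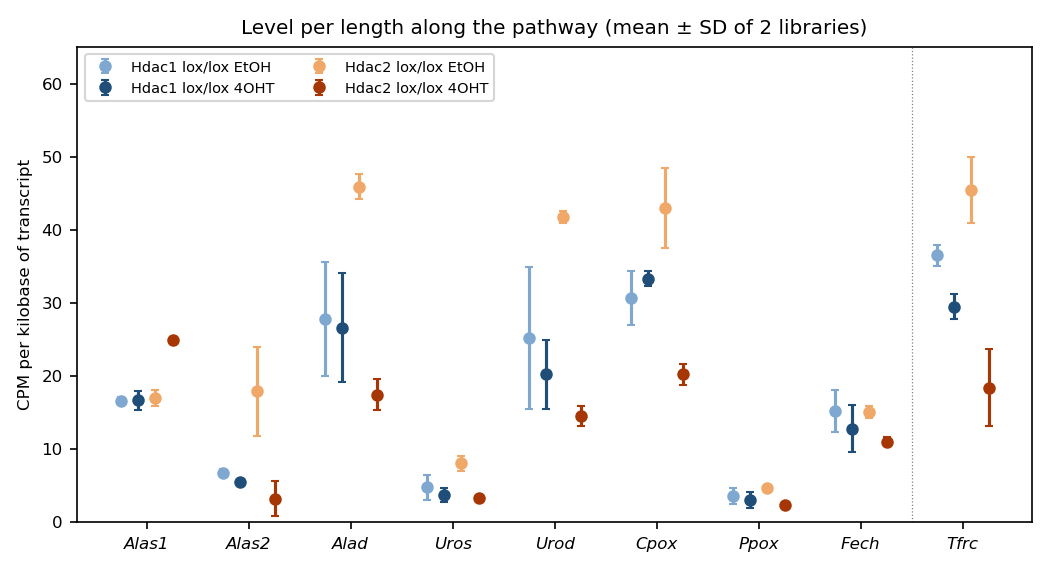
CPM per kilobase of principal transcript (vertical axis, linear, from 0) for the enzymes in pathway order and for Tfrc after the dotted line, with bars for the SD over the 2 libraries. Hdac2 lox/lox EtOH is the highest group for Alas2, Alad, Uros, Urod, Cpox, Ppox and Tfrc, and Hdac2 lox/lox 4OHT is the highest for Alas1.

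Members were set against each other by the root mean square difference of their centred log2 CPM over the 8 libraries, as a description. Alad and Urod were the closest pair, at 0.116, followed by Uros and Urod at 0.155 and Alad and Uros at 0.192. Cpox and Tfrc differed by 0.229. The genes nearest in pattern to Alas2 were Grhpr (0.390), Slc6a9 (0.420) and Cth (0.428), against a median of 1.065 over the genes compared. Slc6a9 encodes a glycine transporter, and glycine is a substrate of ALAS2. For Tfrc they were Exosc7 (0.130), Entpd6 (0.142) and Slc46a1 (0.160), against a median of 0.596. Slc46a1 encodes the proton-coupled folate transporter, which has also been described as a haem carrier.

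For Alad the nearest genes were Ldha, Eif2d and Ptdss2 (0.0750 to 0.0826, median 0.617). For Uros they were Mrps16, Rps20 and Cyc1 (0.0918 to 0.0932, median 0.624). Aunip, Cyc1 and Thoc6 were nearest to Urod (0.0885 to 0.0977, median 0.674), and Ccnb1, Gyk and Mettl13 were nearest to Cpox (0.0761 to 0.0836, median 0.499). The 4 group means of Alas1, Ppox and Fech spanned less than 1 on the log2 scale, so no neighbours were sought for them.

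Gene length moved with the comparison in the Hdac2 line. The median log2 fold change of all genes ran from -0.53 in the quintile with the shortest exon length (57 to 1938 bases) to 0.68 in the quintile with the longest (7101 to 116800 bases). The same measure also differed between replicates of 1 group. It ran from -0.36 to 0.43 between the EtOH libraries of the Hdac1 line and from 0.23 to -0.28 between those labelled 4OHT, but from -0.09 to 0.10 between the EtOH libraries of the Hdac2 line. Alad (1871 bases), Alas2 (2403 bases) and Urod (2591 bases) are short, and Fech (9838 bases) is the longest member. All 9 were set beside genes of their own length. Alad had -1.39 against a median of -0.53 in its quintile, Alas2 -2.45 and Urod -1.52 against -0.27, and Uros -1.26 and Ppox -1.01 against -0.08. Tfrc had -1.30 and Cpox -1.09 against 0.22, and Fech -0.45 against 0.68. Alas1, at 0.55, had a median of 0.22 in its quintile.

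A correction of each library for GC content and length, added after the data were seen, was fitted to the 14122 of 14179 tested genes that had both values. It left 1 member higher and called 8 lower, against 17.5% of all genes lower. The members' median was -1.13. Fech then had -1.12 ± 0.15 SE (adjusted p = 0.00508 by edgeR), against -0.45 without it, and Ppox had -0.94 ± 0.32 SE (adjusted p = 0.0495 by edgeR). The falls became smaller for Alad (-0.98), Urod (-1.19), Alas2 (-2.12) and Uros (-1.13), and larger for Cpox (-1.33) and Tfrc (-1.61). Alas1 had 0.47. In the interaction test, 1 member, Cpox, was called with this correction (-1.43, adjusted p = 0.0485 by edgeR). The correction was run with 2 definitions of length, and the call of Ppox in the Hdac2 line depended on which was used. The first took all exons of GENCODE M21. The second, whose values are given above, left out exons outside a gene's span in the table. It was chosen after the result of the first had been seen, because the table's coordinates of Alas1, Cpox and Fech differ from those of GENCODE M21. With all exons, 1 member was called higher and 7 lower, and the members' median was -1.17. Ppox was then not called (-0.91 ± 0.31 SE, adjusted p = 0.0523 by edgeR). Fech, 13838 bases long with all exons and 9838 within its span, had -1.41 ± 0.16 SE (adjusted p = 0.00333 by edgeR) in the Hdac2 line, and in the interaction test -1.10 (adjusted p = 0.0553 by edgeR). Cpox was called in the interaction test with either length (-1.49 with all exons, adjusted p = 0.049 by edgeR).

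**Figure D4:**
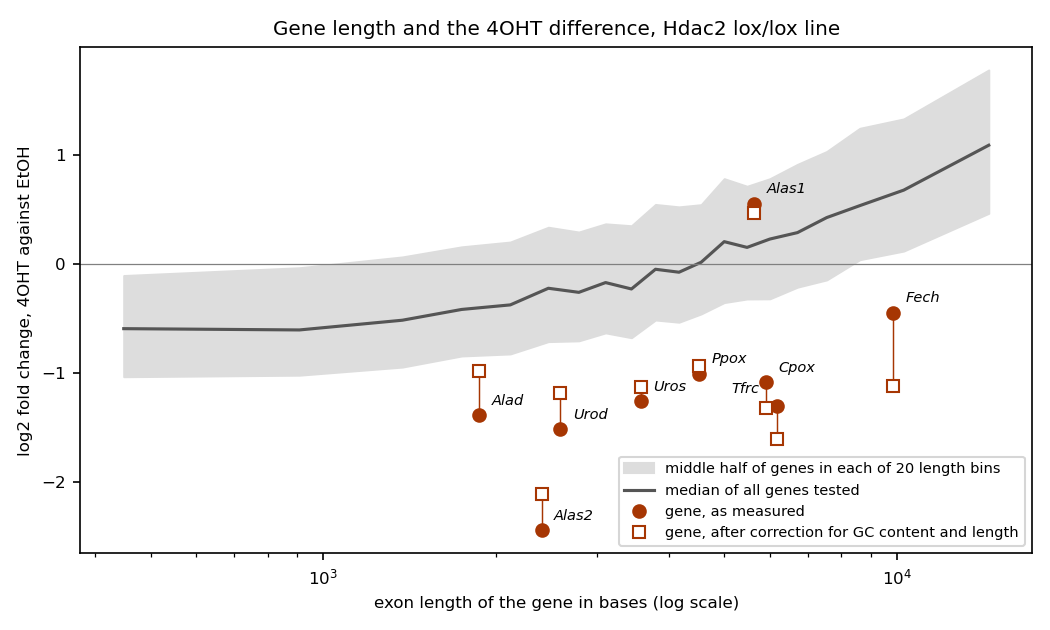
Log2 fold change of 4OHT against EtOH in the Hdac2 lox/lox line (vertical axis) against exon length in bases (horizontal axis, log scale); the line and band are the median and the range between the quartiles of all genes in 20 bins of length. Filled dots are the 9 genes as measured and open squares the same genes after correction for GC content and length, and 8 of the 9 filled dots lie below the line.

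The other genes of the pathway were taken from 4 lists. Of 15 further genes of haem synthesis and mitochondrial iron handling, 6 were called lower and 0 higher in the Hdac2 line, with a median of -0.69 (all genes: 17.2% lower, 18.9% higher, median -0.02). Abcb10, a transporter of the inner mitochondrial membrane that takes part in haem synthesis, fell from 123 and 179 CPM to 51.6 and 52.0 CPM (-1.55 ± 0.21 SE, adjusted p = 0.0081 by edgeR). All 15 had log2 fold changes below 0, from -1.55 to -0.01. In the Hdac1 line none was called.

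Of 9 tested genes of haem export, breakdown and sensing, of 10 on the list, 1 was called lower and 0 higher, with a median of -0.22. Blvrb, a biliverdin reductase abundant in red cells, fell from 103 and 97.3 CPM to 32.3 and 37.8 CPM (-1.52 ± 0.39 SE, adjusted p = 0.0239 by edgeR). Of 10 tested genes of iron uptake, storage and export, of 12 on the list, 2 were called higher and 1 lower, with a median of -0.11. Slc40a1, ferroportin, the iron exporter, rose from 44.8 and 48.0 CPM to 184 and 194 CPM (2.03 ± 0.57 SE, adjusted p = 0.0298 by edgeR). Mcoln1, a lysosomal channel that passes iron, rose by 0.47 on the log2 scale (adjusted p = 0.0452 by edgeR). Slc40a1 (9000 bases) and Mcoln1 (7555 bases) are in the quintile of longest exon length, whose median log2 fold change was 0.68. The rise of Mcoln1 lay below that median and the rise of Slc40a1 above it.

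Fth1, the ferritin heavy chain, fell from 3023 and 2768 CPM to 1404 and 1181 CPM (-1.16 ± 0.20 SE, adjusted p = 0.0102 by edgeR). The genes with the printed iron-responsive elements did not move one way at the level of RNA. Alas2, Tfrc and Fth1 were lower, Slc40a1 was higher, and Ftl1, the ferritin light chain, had 3.50 and 2.96 CPM with EtOH and 3.26 and 2.58 CPM with 4OHT. Both ferritin genes have processed copies in the genome, so their counts are uncertain. In the Hdac1 line Slc40a1 had 23.6 and 72.5 CPM with EtOH and 73.1 and 27.6 CPM with 4OHT, a spread within each group larger than the difference between them.

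Of 5 genes of iron sensing, 3 were called lower and 0 higher, with a median of -0.59. Fbxl5, the iron-sensing subunit that marks IRP2 for destruction, had -0.82 ± 0.23 SE (adjusted p = 0.0298 by edgeR), and Pcbp2, an iron chaperone, had -0.59 ± 0.15 SE (adjusted p = 0.0217 by edgeR). The iron regulatory proteins themselves are encoded by Aco1 and Ireb2. Aco1 had 125 and 132 CPM with EtOH and 120 and 93.0 CPM with 4OHT (-0.27, adjusted p = 0.276 by edgeR). Ireb2 had 156 and 167 CPM and then 180 and 162 CPM (0.08, adjusted p = 0.762 by edgeR).

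**Figure D5:**
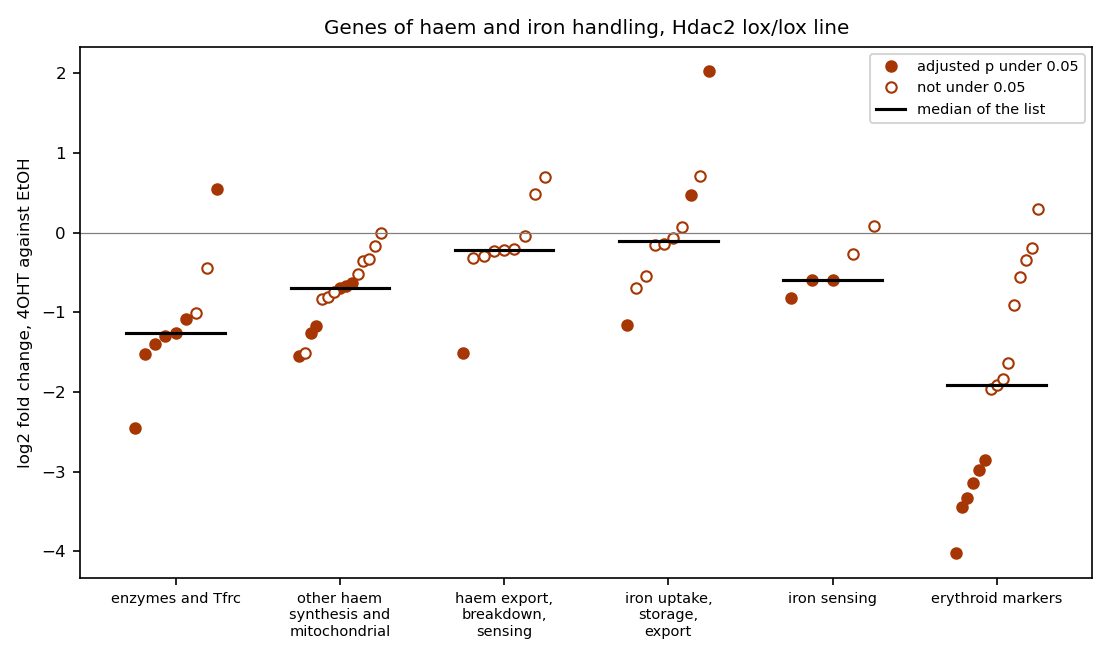
Log2 fold change of 4OHT against EtOH in the Hdac2 lox/lox line (vertical axis) for the tested genes of 6 lists; each dot is a gene, filled where its adjusted p was under 0.05, and the black line is the list's median. The median is -1.26 for the enzymes and Tfrc, -0.69 for the other genes of haem synthesis and mitochondrial iron handling and -1.92 for the erythroid markers.

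Markers of the red lineage moved with the members. Of 16 erythroid markers that leave out the 9 genes, 15 were in the table and tested, and Ahsp was not analysed here. In the Hdac2 line 6 were called lower and 0 higher, with a median log2 fold change of -1.92 (all genes: 17.2% lower, 18.9% higher, median -0.02). They included Gata1 (-3.33) and Klf1 (-4.03), transcription factors of the red lineage, Epor (-2.85), the erythropoietin receptor, Hbb-bh1 (-2.98), an embryonic globin, and Epb42 (-3.14), a protein of the red cell membrane. The summed level of the list was 1686 to 1775 CPM in the EtOH libraries and 251.7 to 393.3 CPM in those labelled 4OHT, against 169 to 962.5 CPM in the Hdac1 line. Hba-a1 and Hba-a2 are near-identical copies, so their separate values are uncertain. The part of these markers in the members' values was not tested. In bulk RNA, fewer cells of a type and less RNA per cell cannot be told apart.

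Other cell types were looked for by the same comparison. Of the 7 markers of haemogenic endothelium, 3 were called higher (Cdh5, Pecam1 and Kdr) and 0 lower (all genes: 18.9% higher, 17.2% lower). The others were not called, with log2 fold changes of 0.74 for Tek, -0.53 for Kit, -0.35 for Runx1 and -0.04 for Gfi1. The list thus did not move one way. The summed level of the 7 went from 2269 to 2507 CPM with EtOH to 5032 to 6641 CPM with 4OHT. Of 7 macrophage markers 6 were tested and 5 were called higher (Itgam, Csf1r, Adgre1, Ptprc and Cd68), with a summed level of 22.62 to 42.78 CPM and then 50.67 to 51.98 CPM. The other tested marker, Mrc1, made up most of the sum with EtOH and was not called, at 15.2 and 40.9 CPM with EtOH and 11.6 and 19.2 CPM with 4OHT (log2 fold change -0.86, adjusted p = 0.332 by edgeR). Of 5 cardiomyocyte markers 2 were called higher (Nkx2-5 and Actc1), with summed levels of at most 35.72 CPM. The 6 markers of visceral endoderm and hepatocytes, cells with high haem synthesis, summed to 0.0955 to 1.63 CPM, and Alb was at 0 counts in all 8 libraries. The part of the endothelial, macrophage and cardiomyocyte markers in the members' values was not tested.

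The regions before the start sites were read for GATA letters, since GATA1 is a known activator of haem synthesis genes and Gata1 was among the markers called lower. RefSeq start sites on GRCm38.p6 gave 12 windows of 250 bases for 8 members. The letters AGATAA, with either A or G allowed as the last and either A or T as the first, were found on one strand or the other in 3 of the 12 windows (25%), 1 each of Alas2, Uros and Cpox, against 26.5% of 32851 windows of the same length over all genes. The members' share is thus near that of all windows. The 3 windows are printed because they held a match. Among the members called lower, Alas2, Uros and Cpox had a window with a match, and Alad, Urod and Tfrc had none. Whether the letters bear on the calls was not tested, and sites outside the windows of 250 bases were not searched. Capitals mark the letters, which read as one of the motifs on the opposite strand. In Cpox, 2 matches overlap. Bases that belong to an exon were cut away, and in the Uros window this removed 1 of 2 matches.
Alas2 (chrX:150547167-150547374, plus strand): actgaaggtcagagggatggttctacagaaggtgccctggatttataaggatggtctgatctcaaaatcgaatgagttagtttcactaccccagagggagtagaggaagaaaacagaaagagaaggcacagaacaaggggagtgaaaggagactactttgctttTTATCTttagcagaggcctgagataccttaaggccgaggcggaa
Uros (chr7:133702617-133702750, minus strand): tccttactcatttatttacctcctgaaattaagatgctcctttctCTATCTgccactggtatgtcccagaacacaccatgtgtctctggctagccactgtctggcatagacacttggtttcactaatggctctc
Cpox (chr16:58669958-58670207, plus strand): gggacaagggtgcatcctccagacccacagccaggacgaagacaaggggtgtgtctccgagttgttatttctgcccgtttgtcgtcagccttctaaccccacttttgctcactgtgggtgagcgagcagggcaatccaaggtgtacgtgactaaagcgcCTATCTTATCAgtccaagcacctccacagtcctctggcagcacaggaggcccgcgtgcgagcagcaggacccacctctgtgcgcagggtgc

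The printed Alas2 and Cpox stretches end at the base before the gene's start in the counts table. The Uros window belongs to a start site inside the gene. The letters are a description of these windows and not of binding by a GATA factor.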

How the data were processed

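Per the labels' protocols, libraries were made from 200 ng of total RNA with a SureSelect strand-specific kit (Agilent) and 15 cycles of amplification. The deposited values are raw read counts per gene, whole numbers that the authors had not normalized. The submitters' processing notes name the build mm10 and the tools Bowtie2 2.2.1, bcl2fastq 2.17.1.14, edgeR 3.8.5, R 3.1.0 and SAMtools 0.1.19, without their roles. No source used here names the counting program, its annotation or its strand setting.

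Groups came from the sample titles. filterByExpr left 14179 genes with 99.93% of counts. TMM scaling and a quasi-likelihood model with a mean for each of the 4 groups over all 8 libraries were fitted in edgeR 4.0.16 (R 4.3.3), with Benjamini-Hochberg adjustment at 0.05 in each of 5 comparisons. Alternatives used DESeq2 1.42.0, limma 3.58.1, other scaling and filters, a replicate block, left-out libraries, each line alone, and a correction for GC content and length. That correction was run first with all annotated exons and then, after its result was seen, with the exons inside each gene's span in the table; both are reported. The fitting script was tested on simulated data, with a pass mark that was lowered after the first result. Most of the smallest changes put into those data were missed, so a gene that was not called may still differ. The reads carry no molecular identifiers, so PCR copies are counted as separate molecules. Copies were sought with BLAST+ 2.17.0. RefSeq windows were given for 8 of the 9 members.

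The members, gene lists, comparisons and alternatives were chosen with earlier results of these data known. The rule names all members, the markers and up to 2 genes of each list and direction with the smallest adjusted p in the Hdac2 line, and the 3 genes nearest in pattern to members whose group means span at least 1 on the log2 scale, among genes of at least 5 CPM. Ddx3y, the overlapping genes, Ftl1, Aco1 and Ireb2 are named outside it, after their values were seen. Some genes that the rule names are not reported here, though the counts and medians of their lists include them. List symbols missing from the table were matched by gene identifier.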

Additional observations from a re-analysis of the deposited data

How the results depend on the processing

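In the Hdac1 line no member was called under any of the alternatives run, while over all genes DESeq2 called 32 and the fit without a filter 4. In the Hdac2 line upper quartile scaling gave 0 members called higher. It shifted the median of all genes by -0.134. For the difference between the lines, members called lower were 4 with DESeq2, 4 without a filter and 1 with the correction for GC content and length, and genes called over all were 1781, 1187 and 146, against 1 with limma-voom. For the EtOH libraries, members called lower were 1 with DESeq2 and 1 with the correction, and genes called over all were 2801 with DESeq2, 2064 without a filter and 2131 with the correction. For the libraries labelled 4OHT, members called higher were 2 with DESeq2 and 2 without a filter, members called lower were 1 with DESeq2 and 1 with the correction (Alas1), and genes called over all were 2023, 1805 and 1887. The correction also moved the share of calls that were higher from 50 to 71.2% for the difference between the lines, where DESeq2 gave 69 and the fit without a filter 65%. With lengths over all annotated exons in the correction, which was run first, genes called over all were 143 for the difference between the lines, 2123 for the EtOH libraries and 1880 for those labelled 4OHT, and members called lower were 1, 2 (Cpox and Fech) and 1. In the Hdac2 line 7 members were then called lower, without Ppox, against 8 with exons inside the table's span only.

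With 1 library left out, members called in the Hdac2 line were 0 to 1 higher and 0 to 7 lower, and genes called over all were 0 to 6422. For the difference between the lines, 0 to 3 members were called lower and 0 to 3740 genes over all. For the EtOH libraries these were 0 to 4 and 1 to 3871. For the libraries labelled 4OHT, 0 to 1 members were called higher and 0 to 1 lower, and 0 to 2276 genes over all. In the fits that left out a library of a compared group, that group was left with 1 library.

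The signs of small differences turned, and of these values only that of Fech between EtOH libraries with all exons was called. Alas1 in the Hdac1 line had -0.016 with upper quartile scaling, -0.0019 with limma-voom, -0.0061 without a filter, -0.026 with the correction and -0.0252 with all exons in it. With 1 library left out, log2 fold changes in the Hdac1 line ran from -0.081 to 0.080 for Alas1, -0.38 to 0.26 for Alad, -0.68 to 0.057 for Uros, -0.67 to 0.15 for Urod, -0.0043 to 0.25 for Cpox and -0.63 to 0.15 for Ppox. The difference between the lines ran from -0.43 to 0.075 for Fech. Between EtOH libraries the range was -0.085 to 0.038 for Alas1 and -0.19 to 0.20 for Fech, which had -0.071 with upper quartile scaling, -0.44 with the correction and -0.6456 with all exons in it (adjusted p = 0.035 by edgeR). Between libraries labelled 4OHT it was -0.15 to 0.39 for Uros, -0.015 to 0.71 for Ppox and -0.062 to 0.45 for Fech. The cause of these changes was not tested.

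Replicate numbers were not taken to pair libraries. Deviations of same-numbered libraries from their group means correlated over 14179 genes at -0.688 within the Hdac1 line and 0.264 within the Hdac2 line. With the replicate number as a block, 1 member was called higher and 6 lower in the Hdac2 line, among 3624 genes over all, and 0 members were called in the Hdac1 line. The block left 0 genes called for the difference between the lines, 184 for the EtOH libraries (79.3% higher) and 223 for those labelled 4OHT (39% higher), where 0 members were called higher (Cpox 0.72, adjusted p = 0.0895 by edgeR). Alas1 in the Hdac1 line had -0.00055. Ppox had 49 to 147 counts per library, Uros 64 to 239 and Alas2 37 to 698, and 2 libraries per group limited all comparisons.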
